A study of Mus musculus with 6 samples.

Results

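Meningeal and large vessel spots were studied in coronal mouse brain sections, and 610 of 20336 Visium spots belonged to them. A Visium spot is a small round capture area that takes up RNA from several neighbouring cells, so a spot is a place in the tissue and no cell. Members were chosen by the counts themselves. In every spot with 500 or more unique molecular identifiers (UMIs, counted RNA-derived probes), the CPM (counts per 1000000 UMIs of the spot) of Col1a2, Mgp, Fmod, Slc22a6 and Acta2 were each divided by their mean over the section and averaged into a score, and the top 3% of spots of each section were kept. Because these 5 genes chose the members, their levels are description only, and they were left out of every test. The remaining 19726 spots are called other spots.

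The series holds 6 formalin-fixed, paraffin-embedded (FFPE) brain sections of untreated male C57BL/6J mice, with 2 biological replicates at each age, so p-values measure the spread between these sections. The ages were postnatal day 21 (P21), adult (12 to 15 weeks) and aged (28 months). P21 and adult sections were mounted directly on the first version of the Visium slide. Aged sections were transferred with the CytAssist instrument to the second version, prepared with a changed probe design and counted with a later Space Ranger release, so in aged vs. adult the age, the probes, the slide and the software cannot be told apart.

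The meninges are the membranes around the brain. The inner membranes, the arachnoid and the pia, are made by fibroblasts that secrete collagens and signals such as retinoic acid, carry solute transporters, and wrap the arteries and veins that run over the surface and dip into the tissue. Arteries have a coat of smooth muscle and an elastic layer, while macrophages of the brain borders live beside the vessels and in the membranes.

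Per section, 108 and 99 spots were members at P21, 88 and 98 in the adult sections, with 110 and 107 in the aged ones. They held 2284515 and 1051163 UMIs at P21, 1269854 and 1193623 in the adult sections, with 1382571 and 1045778 in the aged ones, summed per section. The median member spot was shallower than the median other spot in every section. The ratio of the medians was 0.836 and 0.707 at P21, 0.794 and 0.732 in the adult sections, with 0.601 and 0.340 in the aged ones, so aged replicate 2 stood apart with 8932 UMIs in its median member spot against 26246.5 elsewhere. The score of the last spot kept and the first spot left out differed little, being 4.73 and 4.72 in P21 replicate 1 and 6.30 and 6.24 in aged replicate 2. Spot barcodes were shared by 2612 to 2997 spots between any pair of P21 and adult sections and by 3364 spots between the aged sections. Slides of 1 version carry the same printed barcodes, and no barcode was shared between the slide versions.

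No single score gene made the list in any section. In adult replicate 1, for example, the highest of the 5 scaled values was that of Fmod in 28 members, Slc22a6 in 24, Acta2 in 22, Col1a2 in 7 and Mgp in 7. Acta2, the actin of smooth muscle, led in 40 of 108 members of P21 replicate 1 and in 21 to 26 members of each other section. Slc22a6, an organic anion transporter, led in 24 to 40 members per section. Members thus included both spots led by fibroblast genes and spots led by the muscle coat of vessels.

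Position was not used by the rule. Members lay along the outer contour of the sections, in a compact group at a notch of the contour, and scattered inside, as the map of the sections shows. The share of members with at least 1 neighbouring slide position free of tissue was 55.6% and 44.4% at P21, 45.5% and 54.1% in the adult sections, with 59.1% and 66.4% in the aged ones. Among other spots that share lay between 3.11% and 7.84%, so the members were above the other spots in all 6 sections. The mean difference was 49.1 percentage points ± 9.75 (SD, n = 6 sections; two-sided exact permutation of signs, p = 0.03125, adjusted over 2 position measures 0.03125), and that is the smallest p that 6 sections allow. Members were also each other's neighbours. Of the tissue spots next to a member, 25.03% and 15.5% were members at P21, 34.2% and 29.2% in the adult sections, with 32.4% and 45.4% in the aged ones, against 1.39% to 2.28% next to other spots (difference 28.5 points ± 10.2, n = 6 sections, exact p = 0.03125). Members without any member beside them made up 13.1% of the list in aged replicate 2 and 55.6% in P21 replicate 2.

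**Figure D1:**
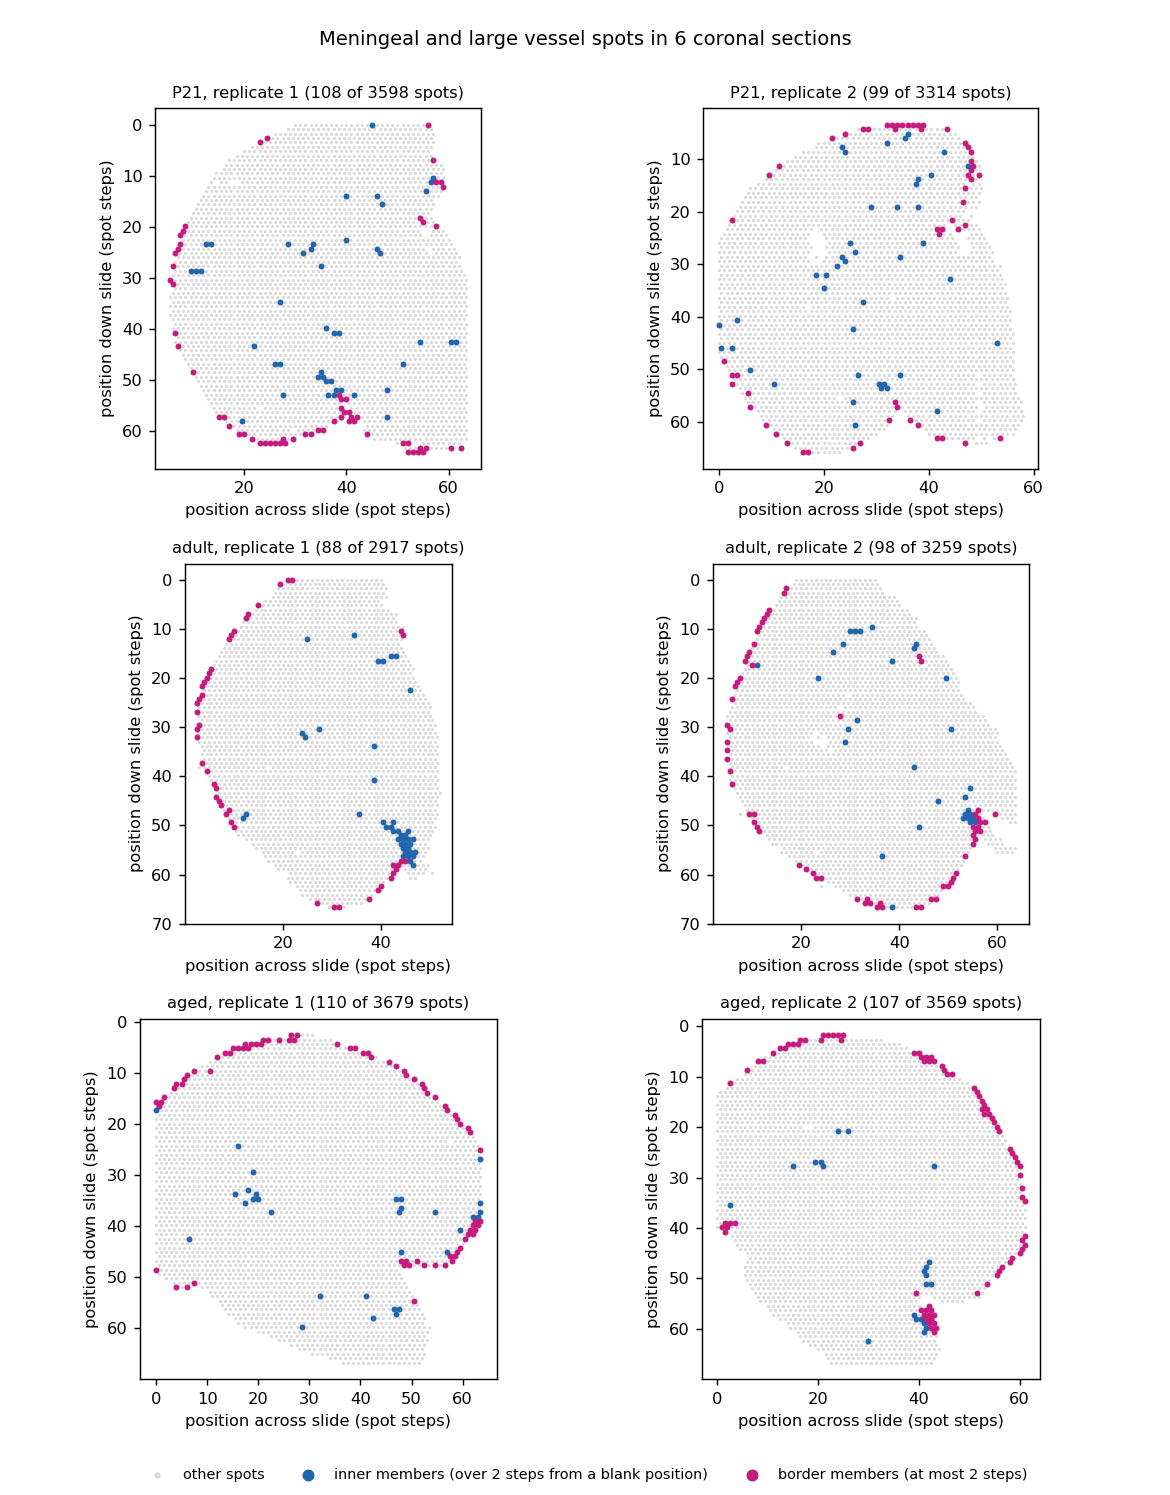
Each panel is 1 section, with a point for every spot kept, placed by its row and column on the slide in spot steps. Magenta points (members at most 2 steps from a slide position free of tissue) follow the outline in all 6 sections, blue points are members further inside, and grey points are other spots.

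The label was checked against markers that the rule did not use. All 24 genes of a meningeal fibroblast list had a higher CPM in member than in other spots in all 6 sections, and their summed level was 13.7 times higher (median, 10.0 to 18.9 over sections). Of 14 vascular smooth muscle genes, 13 were higher in all sections, with a summed level 7.90 times higher (4.47 to 11.6). For border-associated macrophages this held for 10 of 12 genes (8.84 times, 5.64 to 12.98). Both named constituents, membranes and the walls of larger vessels, therefore had their markers in the member spots. Since the rule chose spots on this contrast, no test was made of it.

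Among genes with at least 20 CPM in the members of every section, Fgfbp1, a carrier that releases fibroblast growth factors, had the highest ratio, with 36.3 and 34.2 CPM in members at P21, 50.4 and 46.9 in the adult sections, with 45.6 and 57.4 in the aged ones, against 1.199 to 2.85 in other spots. Aldh1a2, the enzyme that makes retinoic acid in the meninges, followed with a median ratio of 32.8. Next were Ogn (30.8), a small proteoglycan of collagen fibrils, and Slc6a13 (27.5), a transporter of GABA and taurine in the leptomeninges. Slc13a4, a sulphate transporter, had a ratio of 26.4. The muscle genes Tagln (26.1) and Myh11 (24.6), the latter the myosin heavy chain of smooth muscle, stood beside these fibroblast genes. Dcn, Eln, Ptgds, Col1a1, Sphk1, Thbd, Cyp1b1 and Olfml2a completed the first 15 genes, with ratios of 16.9 to 20.7.

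Member spots also held neighbouring cells. The summed level of the astrocyte and glia limitans list was 2.11 times that of other spots, that of the endothelial list 2.47 times and that of the pericyte list 2.77 times. The neuron list was at 0.670 of the level in other spots. The oligodendrocyte list, whose gene with the most UMIs was Mbp, had 20260 and 23843 CPM in P21 members, 9870 and 18977 in adult members and 4763 and 8852 in aged members. The adult sections were far apart, and adult replicate 2 was nearer to the P21 sections than to adult replicate 1.

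Choroid plexus genes varied most of all. The summed level of 10 choroid plexus genes, of which Ttr had the most UMIs, was 10689 and 13012 CPM in P21 members, 5786 and 1434 in adult members, and 5872 and 690 in aged members. Only 1 of the 10 genes was higher in members than in other spots in all sections. The erythrocyte list, led by Hbb-bs, had 8672 and 3147 CPM in P21 members, 1310 and 618 in adult members and 761 and 2108 in aged members. A list of 17 lymphocyte and myeloid blood cell genes had 325 CPM in aged replicate 2 and 51.4 to 85.0 in the other sections, and its member Nkg7 was at 0 in all members. What these cells contribute to the age comparisons was not tested, and in sums over spots fewer cells of a type and less RNA per cell cannot be told apart.

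**Figure D2:**
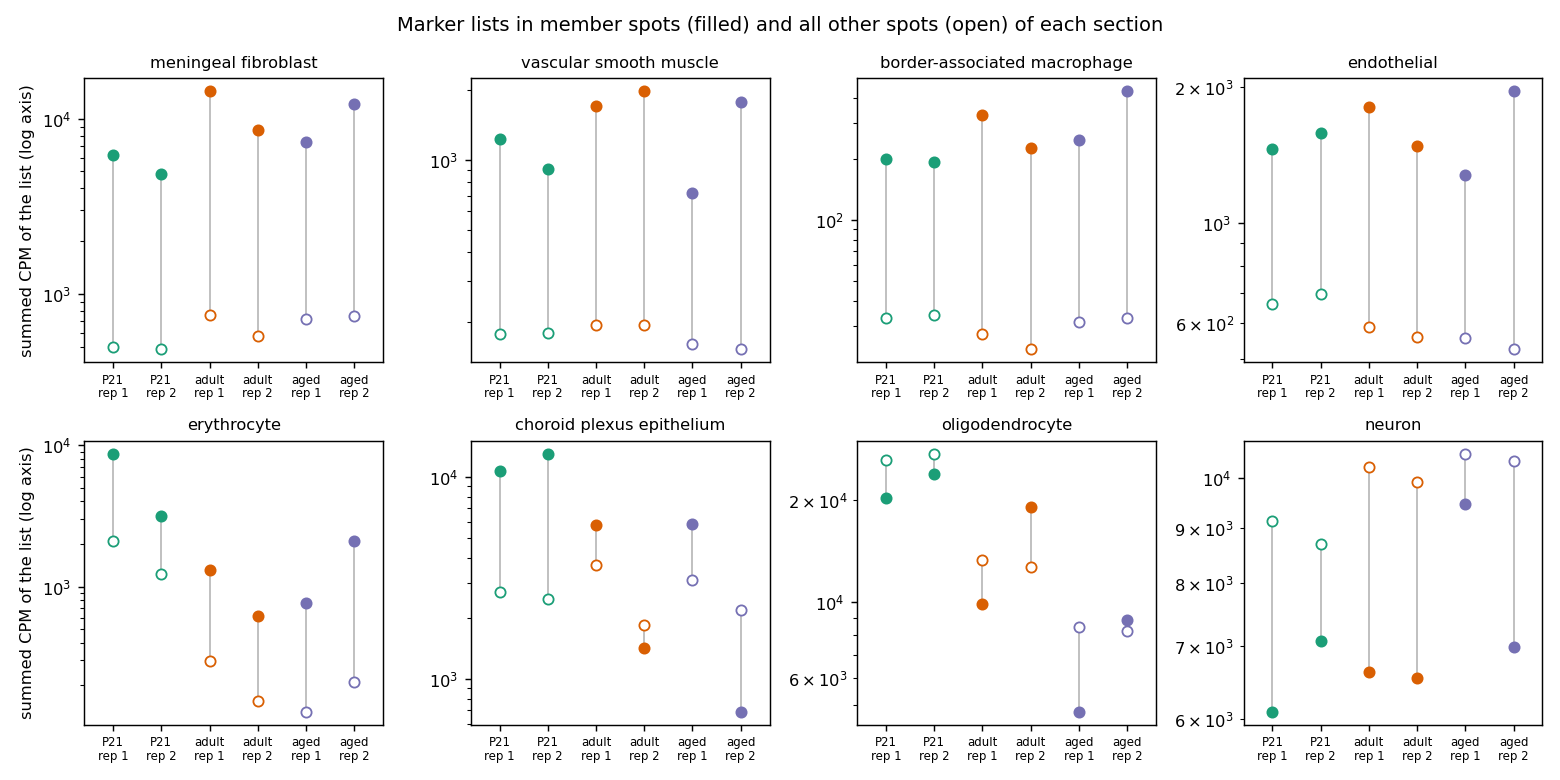
Each panel is a marker list, with the summed CPM of its genes on a log axis for the 6 sections on the x axis, filled points for member spots and open points for all other spots of the same section. Fibroblast, smooth muscle and macrophage lists are higher in members in every section, whereas choroid plexus and oligodendrocyte lists differ in level and even in direction between sections.

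Members differed among themselves by where they lay. Border members, at most 2 spot steps from a position free of tissue, numbered 63 and 57 at P21, 47 and 67 in the adult sections, with 79 and 86 in the aged ones, and inner members numbered 45, 42, 41, 31, 31 and 21 in the same order. With each section as a block, 158 of 9818 genes differed (1.61% called by edgeR's quasi-likelihood test with a fold change over 1.5 and a Benjamini-Hochberg adjusted p under 0.05), 95 higher (0.968%) and 63 lower (0.642%) at the border. Which direction held more genes depended on the setting, with 81 higher and 100 lower without adult replicate 2, 108 and 115 with a pooled score limit and 39 each without Acta2 in the score. Of 21 meningeal fibroblast genes tested, 11 rose at the border and 0 fell (median log2 fold change 0.94, against -0.00 over all genes tested).

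Ptgds, the synthase of prostaglandin D2 and a major secreted protein of the leptomeninges, had 6829 and 4567 CPM in border members at P21, 11731 and 8510 in the adult sections, with 6908 and 12420 in the aged ones. In inner members it had 450 and 576, 9570 and 2369, and 2028 and 1349 CPM. It was higher at the border in all 6 sections, by 2.34 on the log2 scale (SE 0.35, adjusted p = 0.0062 by edgeR), with the smallest gap in adult replicate 1. Sphk1, which makes sphingosine 1-phosphate, was higher by 2.35 (SE 0.35, adjusted p = 0.0062), and Fgfbp1 by 2.10 (SE 0.26, adjusted p = 0.0043). Bnc2 (1.95), Slc9a2 (1.89) and the retinoic acid carrier Crabp2 (1.79) were the next largest. Crabp2 lost its call without P21 replicate 1 or 2 or aged replicate 1 or 2, where its adjusted p was 0.061 to 0.106.

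Solute carriers behaved alike. Of 15 transporters of the leptomeninges tested, 8 rose at the border and 0 fell (median log2 0.88). They were Slc13a3, Slc13a4, Slc22a8, Slc38a2, Slc47a1, Slc6a13, Slc6a20a and Slc7a11. Of these, Slc13a4, Slc47a1 and Slc6a13 are also on the fibroblast list and were counted there. Slc47a1, an exporter of organic cations, had 20.2 and 7.80 CPM in border members at P21, 115 and 37.7 in the adult sections, with 37.4 and 16.03 in the aged ones, against 1.74, 1.86, 54.8, 14.7, 4.48 and 3.36 in inner members. Its border level was above its inner level in all 6 sections (log2 1.69, SE 0.29, adjusted p = 0.0122).

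On the inner side, 8 of 10 oligodendrocyte genes were lower at the border (median log2 -1.36). Mobp, a myelin protein gene, had 1342 and 2100 CPM in border members at P21, 766 and 2450 in the adult sections, with 269 and 564 in the aged ones, against 3479, 4053, 2091, 2908, 1911 and 4192 in inner members, and fell by 1.61 on the log2 scale (SE 0.28, adjusted p = 0.0122). Adult replicate 2 had the smallest difference. Of 10 smooth muscle genes tested, 2 fell at the border (median log2 -0.52), namely Myl9, a light chain of myosin (-0.67, adjusted p = 0.0122), and Synpo2, which bundles actin (-1.02, adjusted p = 0.0488). Of 9 fibrillar and beaded collagen genes and 16 basement membrane genes, 0 were called by edgeR or DESeq2 in this comparison, with 5 and 3 at an unadjusted p under 0.05 (median log2 0.44 and 0.08). The number of border and inner differences depended on the sections entered, with 61 genes called without P21 replicate 2, 63 without aged replicate 2, 85 without aged replicate 1, 102 without P21 replicate 1 and 224 without adult replicate 1.

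**Figure D3:**
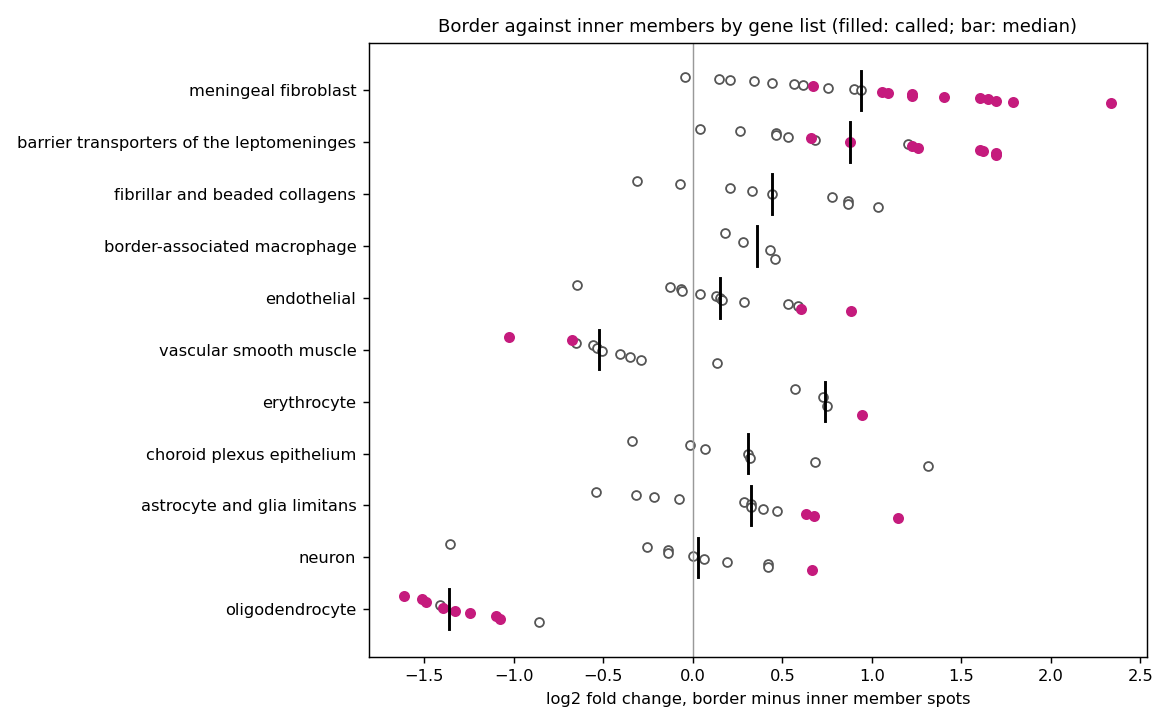
The x axis is the log2 fold change of border against inner members over 6 sections, and each point is a gene of the list named on the y axis, filled where it was called, with a bar at the list's median. All transporters and all fibroblast genes but 1 lie to the right of 0, all oligodendrocyte genes lie to the left, and collagen genes have no filled point.

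The comparison of P21 with adult asks which genes of the membranes and vessels still change between weaning and maturity. Of 11616 genes tested, 154 were called (1.33%), with 88 higher (0.758%) and 66 lower (0.568%) at P21. Called genes of the fixed lists that were higher in the young members included 3 of 12 fibrillar and beaded collagens, 3 of 18 basement membrane genes and 1 of 13 elastic fibre genes, while 5 of 13 antigen presentation genes and 5 of 16 transporters of the leptomeninges were lower. For the called genes named here the P21 and adult sections did not overlap, which was also so for 47.9% of all genes tested. Levels below are CPM in members, scaled with TMM factors. The number called depended on the sections entered. In the age comparisons, a fit without 1 section leaves 1 section at that age, so its spread comes from the other ages. Without P21 replicate 1, the deeper of both P21 sections, edgeR's quasi-likelihood test called 0 genes, with 922 at an unadjusted p under 0.05. It called 29 genes without P21 replicate 2, 23 without adult replicate 1, 78 without adult replicate 2, 521 without aged replicate 1 and 523 without aged replicate 2. Lower genes were then the larger share without adult replicate 1 (9 higher, 14 lower), adult replicate 2 (28 and 50), aged replicate 1 (253 and 268) or aged replicate 2 (235 and 288).

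Fibrillar collagens make up the bulk of the meningeal membranes and the outer coat of vessels. Of 12 such genes tested, 3 rose at P21 and 0 fell (median log2 0.34, against 0.01 over all genes tested). Col3a1 (chr1:45311538-45349706, GRCm38) had 305 and 236 CPM at P21, 75.0 and 85.0 in the adult sections, with 19.3 and 28.6 in the aged ones. Both P21 sections were far above both adult sections. The log2 fold change was 1.77 (SE 0.19, adjusted p = 0.0021 by edgeR). Col1a1, the main chain of type I collagen, had 357 and 324 CPM at P21 and 132 and 117 in adults (log2 1.45, SE 0.18, adjusted p = 0.0029). The call of Col5a2, which sets the width of collagen fibrils, rested on 58.3 and 57.1 CPM at P21 against 17.6 and 19.99 in adults (log2 1.62, adjusted p = 0.0079).

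Basement membranes lie under endothelium and the glia limitans. Of 18 of their genes, 3 rose and 0 fell (median log2 0.41), namely Col4a1, Col4a2 and Col15a1. Col4a1, a chain of the type IV network, had 201 and 203 CPM at P21 and 75.8 and 72.5 in adults (log2 1.44, SE 0.17, adjusted p = 0.0024). Eln, the elastin of arterial walls, had the largest change among the called matrix genes, with 1110 and 715 CPM at P21 and 198 and 234 in adults (log2 2.08, SE 0.30, adjusted p = 0.0079). Among 13 elastic fibre genes it was the only one that rose, and Efemp1, a fibulin, fell by 1.69 (SE 0.29, adjusted p = 0.0178). Sparc, a secreted collagen-binding protein, rose by 0.999 (SE 0.21, adjusted p = 0.0351). Of 17 genes for collagen assembly and crosslinking and 12 for matrix turnover, 0 were called by edgeR's quasi-likelihood test or DESeq2, with 4 and 2 at an unadjusted p under 0.05.

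Igfbp3, which binds insulin-like growth factors, was higher at P21 (127 and 93.8 CPM, against 30.6 and 18.3 in adults; log2 2.18, SE 0.30, adjusted p = 0.0076). Igfbp6, a related binding protein, was lower instead (31.8 and 32.9 against 101 and 69.1 CPM; log2 -1.40, SE 0.23, adjusted p = 0.0148). Plvap marks fenestrated and immature endothelium, and 96 and 26 of its UMIs lay in the P21 members, against 4 and 2 in the adult members (log2 3.82, SE 0.57, adjusted p = 0.0088 by edgeR). Plvap was not called without adult replicate 1 (log2 4.31) or adult replicate 2 (3.47) and was not tested without P21 replicate 1. Of 14 general endothelial genes, 10 pericyte genes and 13 smooth muscle genes tested, 0 were called by edgeR, with 2, 2 and 6 at an unadjusted p under 0.05, and DESeq2 called 1 smooth muscle gene. All 13 smooth muscle genes lay below 0 (median log2 -0.72), while the median was -0.08 for the endothelial and 0.06 for the pericyte genes. Gkn3, an arterial gene, was lower, with 17.0 and 13.5 CPM at P21 and 32.9 and 43.3 in adults (log2 -1.27, SE 0.29, adjusted p = 0.0482).

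All 4 erythrocyte genes tested rose at P21 by edgeR, and DESeq2 called 1 of the 4. Hbb-bs, a globin of red blood cells, had 5826 and 2234 CPM at P21 against 858 and 413 in adults (log2 2.66, SE 0.50, adjusted p = 0.0245), and it was also higher in the other spots of P21 sections, as the erythrocyte list there had 2100 and 1237 CPM against 295 and 155. Aqp1 of the choroid plexus list (28.7 and 16.4 against 6.89 and 2.499 CPM; adjusted p = 0.0345) and Mia of the ependyma list (52.2 and 42.6 against 10.7 and 3.33 CPM; adjusted p = 0.0075) rose as well. Aqp1 was not called without P21 replicate 2 or either adult section (log2 1.77 to 3.19) and was not tested without P21 replicate 1. DESeq2 called 0 of 9 choroid plexus genes, with 6 at an unadjusted p under 0.05 by edgeR (7 above 0, median log2 1.06). All 6 ependyma genes tested lay above 0 (median log2 1.39), with 4 at an unadjusted p under 0.05 by edgeR. Agrp, the agouti-related peptide of hypothalamic feeding neurons, had 69.6 and 9.67 CPM at P21 and was at 0 in both adult sections, which makes it at least 16.3-fold higher at P21 when each adult section is put at 3 counts (adjusted p = 0.0243), and at least 3.90-fold higher with the lower P21 section alone. It was not called without adult replicate 1 (adjusted p = 0.148) or adult replicate 2 (0.116) and was not tested without P21 replicate 1. Asb4 (log2 2.61) and Arhgap36 (2.54), genes of the same region of the brain, rose with it. P21 replicate 1 was the higher P21 section for all 3, and the part that the tissue under the members had in these rises was not tested. Hbb-bs lost its call without P21 replicate 1 or without either adult section (log2 1.82 to 3.28, adjusted p = 0.087 to 0.389).

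Antigen presentation genes were lower at P21. Class II molecules of the major histocompatibility complex show peptides to helper T cells, and at the brain border they are known from macrophages and dendritic cells. Of 13 genes of the list tested, 5 fell and 0 rose (median log2 -0.98), and all 13 had a negative log2 fold change. They were H2-Aa, H2-Ab1, H2-Eb1, Cd74 and B2m. The first 3 encode chains of class II molecules and lie together on chromosome 17 (GRCm38), at chr17:34282744-34287823, chr17:34257689-34269419 and chr17:34305867-34316674.

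H2-Aa had 11.8 and 4.84 CPM at P21, 99.5 and 49.98 in the adult sections, with 15.6 and 47.6 in the aged ones (P21 vs. adult log2 -2.99, SE 0.48, adjusted p = 0.0139). H2-Eb1 had 4.35 and 9.67 CPM at P21 against 38.3 and 35.0 (log2 -2.56, SE 0.47, adjusted p = 0.0228), and H2-Ab1 had 8.70 and 9.67 against 63.5 and 31.7 (log2 -2.39, SE 0.53, adjusted p = 0.0437). Cd74, the invariant chain that loads class II molecules, had 39.2 and 40.6 CPM at P21 against 285 and 137 in adults (log2 -2.41, SE 0.41, adjusted p = 0.0172). Every adult section was above every P21 section for these 4 genes, with adult replicate 1 the highest. H2-Aa was not called without P21 replicate 1 (log2 -3.92, adjusted p = 0.267), P21 replicate 2 (-2.67, 0.141) or adult replicate 1 (-2.42, 0.115), nor was Cd74 (-2.37, 0.358; -2.43, 0.180; -1.79, 0.139). B2m, the light chain of class I molecules, fell by 0.85 (SE 0.18, adjusted p = 0.0363). The border-associated macrophage list had 0 of 7 genes called by edgeR or DESeq2 and 2 at an unadjusted p under 0.05 (median log2 -0.55), and its summed level was 198 and 192 CPM at P21 and 328 and 227 in adults. All 7 of its genes lay below 0. In aged vs. adult, 0 of 13 antigen presentation genes were called by edgeR or DESeq2, with 6 at an unadjusted p under 0.05 (median log2 -0.28).

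Promoters of class II genes are known to share a Y box, a motif bound by the factor NF-Y. The stretches just upstream of the start of the genes that moved together are shown for this reason, from RefSeq on GRCm38.p6, 120 bases each on the coding strand, with the letters CTGATTGG in capitals. For H2-Aa the stretch is chr17:34287824-34287943 (minus strand), and for H2-Eb1 it is chr17:34305747-34305866 (plus strand). H2-Ab1 is named only.
H2-Aa: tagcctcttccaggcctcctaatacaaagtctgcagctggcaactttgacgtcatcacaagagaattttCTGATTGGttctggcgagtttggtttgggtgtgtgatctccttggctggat
H2-Eb1: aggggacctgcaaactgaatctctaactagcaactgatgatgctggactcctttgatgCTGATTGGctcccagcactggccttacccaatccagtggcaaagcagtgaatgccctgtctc
Each stretch holds the letters once, starting 51 bases before the start of H2-Aa and 62 bases before that of H2-Eb1. On either strand, CTGATTGG or its reverse complement CCAATCAG occurs in 3.83% of 32851 promoters within 250 bases upstream, and its core ATTGG or CCAAT, which it contains, in 33.9%. A match is a description of the sequence and not of binding.

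Of 24 meningeal fibroblast genes, 5 fell, 2 rose and 17 were not called (median log2 -0.80), with the collagens Col1a1 and Col3a1 as the genes that rose. Slc47a1 had 10.9 and 4.84 CPM at P21, 78.8 and 28.3 in the adult sections, with 27.5 and 12.4 in the aged ones (P21 vs. adult log2 -2.61, SE 0.50, adjusted p = 0.0246). Slc13a4 had 74.0 and 55.1 against 195 and 127 CPM (log2 -1.29, SE 0.22, adjusted p = 0.0179). Ptgds fell by 1.40 (SE 0.30, adjusted p = 0.0401), Aldh1a2 by 1.28 (SE 0.25, adjusted p = 0.0247) and Ogn by 1.37 (SE 0.29, adjusted p = 0.0383). These genes moved opposite to the collagens of the same list. Slc47a1 lost its call without P21 replicate 1, P21 replicate 2 or adult replicate 1 (log2 -3.45, -2.30 and -1.70, adjusted p = 0.321, 0.238 and 0.284). Of 16 transporters 5 fell and 0 rose (median log2 -0.67), with Slc13a3, Slc38a2 and Slc6a20a besides the pair already given.

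Il33, an alarm signal stored in nuclei of glia and stromal cells, was lower at P21, with 23.1 and 15.5 CPM against 86.5 and 139 in adults (log2 -2.46, SE 0.27, adjusted p = 0.0021). Klk6 and Anln, oligodendrocyte genes by background though not on the list, fell by 3.33 and 2.19 (adjusted p = 0.0345 for both), while 0 of 10 listed oligodendrocyte genes were called by edgeR or DESeq2, with 6 at an unadjusted p under 0.05 (median log2 0.73). Adult replicate 2 held most of the signal of both, as Klk6 had 24.5 and 78.3 CPM in the adult sections.

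The border share was 58.3% and 57.6% at P21 and 53.4% and 68.4% in adults. In border members alone, 61 genes were called, 53 higher and 8 lower. There H2-Aa (log2 -1.43), Cd74 (-1.48), Slc13a4 (-0.74), Aldh1a2 (-0.75) and Ogn (-0.75) did not pass (adjusted p = 0.108 to 0.422 by edgeR). H2-Ab1 (-1.07), H2-Eb1 (-2.10), Slc47a1 (-2.20), Igfbp6 (-0.95), Efemp1 (-1.22), Slc38a2 (-0.52), Gkn3 (-2.14) and Anln (-2.62) did not pass either (adjusted p = 0.051 to 0.640). Col1a1, Col3a1, Col4a1, Eln, Igfbp3 and Il33 kept their calls. Without P21 replicate 1, where no gene passed, the log2 fold change was 1.57 for Col3a1, 1.38 for Col1a1, 1.73 for Eln and -2.85 for Il33 (adjusted p = 0.126 to 0.267). Of the genes named by the fixed rule, 15 of 31 kept their call without P21 replicate 2, 8 without adult replicate 1 and 17 without adult replicate 2. Col1a1, Col3a1, Col4a1, Igfbp3, Il33 and Mia lost their call, among the fits that left out 1 section, only without P21 replicate 1. Gkn3, H2-Eb1, Ogn and Sparc lost theirs without each P21 and adult section in turn (adjusted p up to 0.446).

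**Figure D4:**
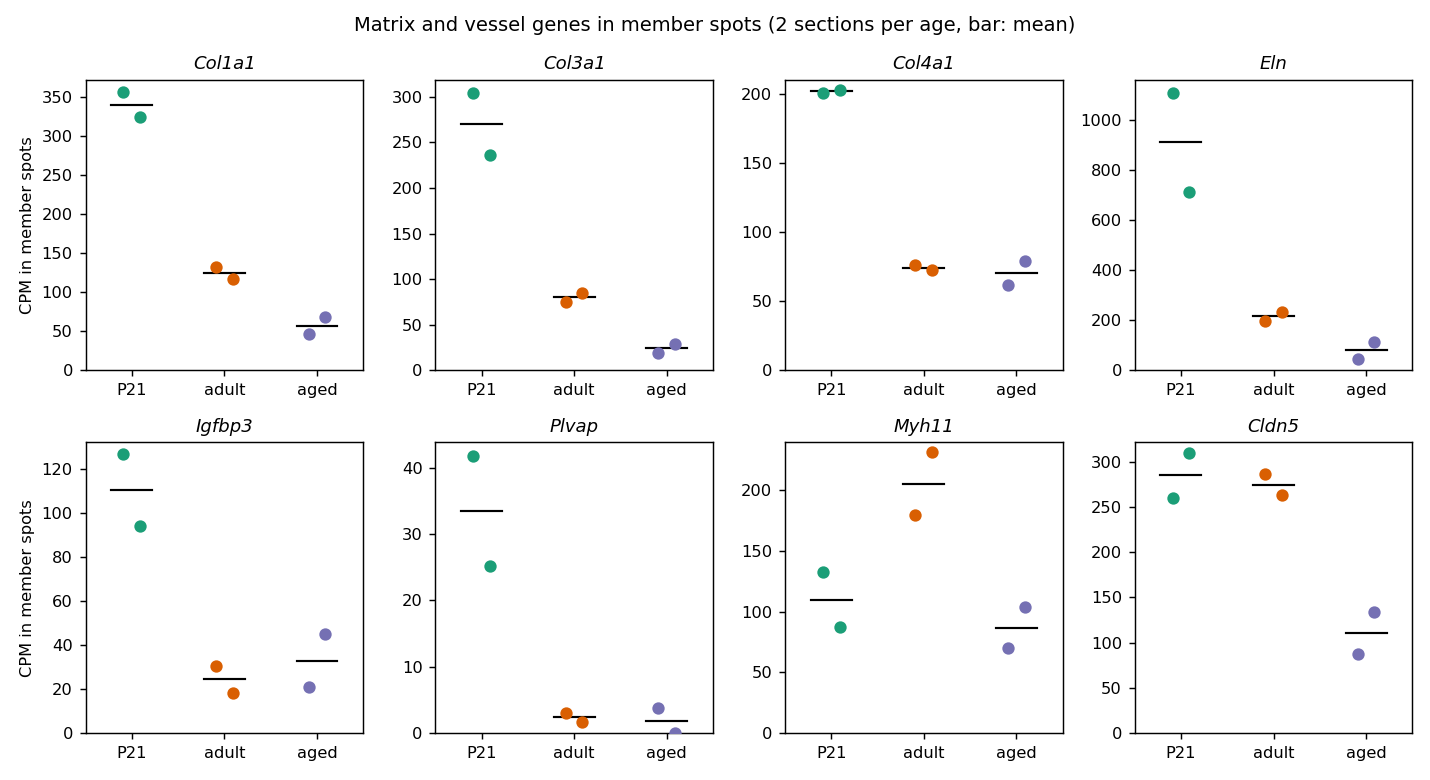
The y axis is the CPM of a matrix or vessel gene in member spots, scaled with TMM factors and starting at 0, for the 3 ages on the x axis, with a point per section and a bar at the mean of 2 sections. Col1a1, Col3a1 and Eln are highest at P21 and lowest in the aged sections, while Col4a1, Igfbp3 and Plvap are at similar levels in adult and aged sections and Cldn5 is low in the aged sections only.

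**Figure D5:**
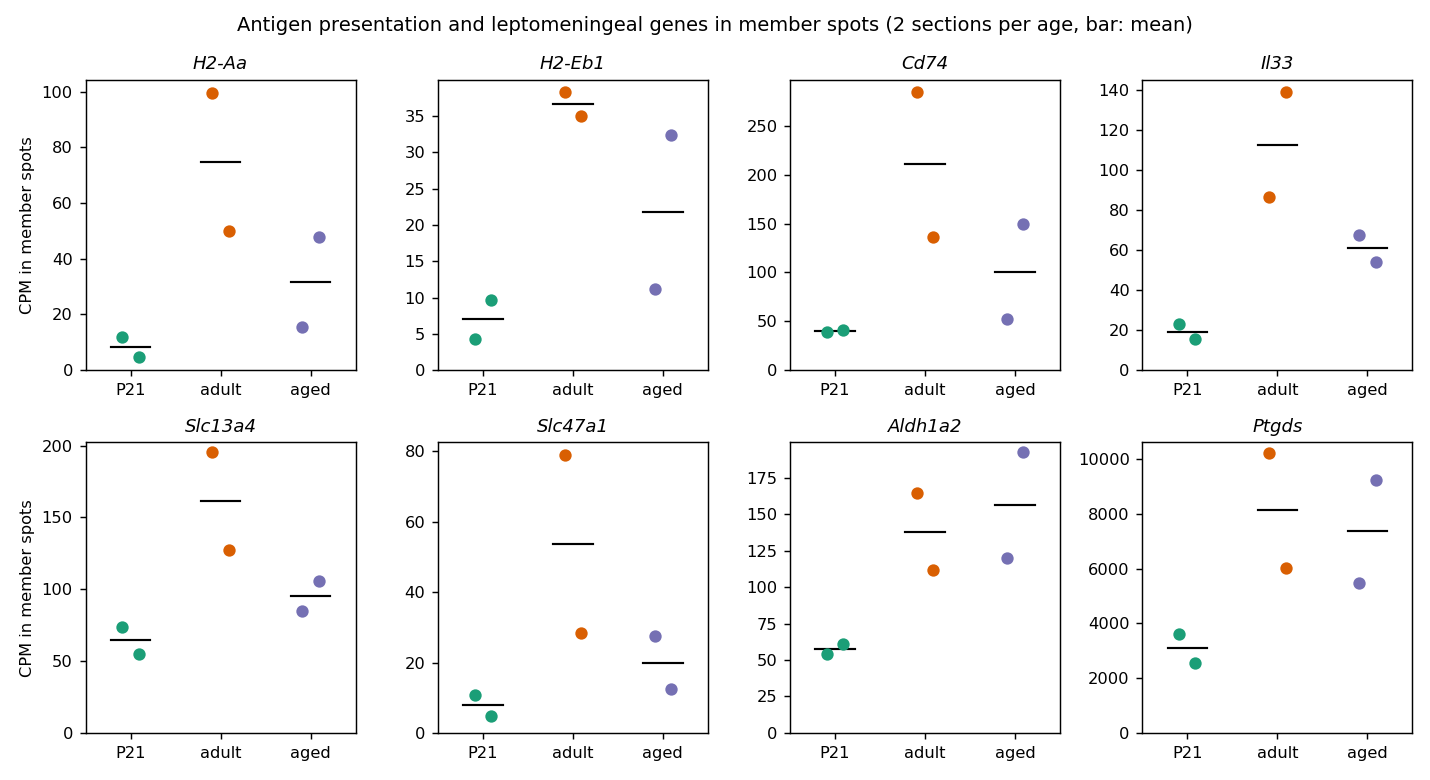
The y axis is the CPM of an antigen presentation or leptomeningeal gene in member spots, scaled with TMM factors and starting at 0, for the 3 ages, with a point per section and a bar at the mean of 2 sections. Both P21 sections lie below both adult sections for all 8 genes, and the aged sections lie within or beside that range, with Aldh1a2 of aged replicate 2 highest.

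Aged vs. adult addressed the same spots late in life. Of 11452 genes tested, 736 were called (6.43%), with 520 higher (4.54%) and 216 lower (1.89%) in aged members. Called genes of the fixed lists that were lower included 3 of 12 fibrillar and beaded collagens, 4 of 9 arterial genes and 4 of 10 oligodendrocyte genes, while 5 of 10 neuron genes were higher. DESeq2 called 2, 0, 1 and 5 genes of these lists. Because the probes, the slide version and the software changed with age, age and these technical changes cannot be told apart in any of these differences. For the called genes named here the aged and adult sections did not overlap, as was the case for 50.4% of all genes tested. Without adult replicate 2, 66 genes were called, against 204 without adult replicate 1, 640 without aged replicate 1, 1411 without aged replicate 2, 335 without P21 replicate 1 and 328 without P21 replicate 2.

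Of 12 fibrillar and beaded collagen genes, 3 fell and 0 rose (median log2 -0.82, against -0.01 over all genes tested). Col3a1 fell from 75.0 and 85.0 CPM in adults to 19.3 and 28.6 in aged mice (log2 -1.76, SE 0.25, adjusted p = 0.0023). Col1a1 went from 132 and 117 to 46.1 and 67.6 CPM (log2 -1.15, SE 0.20, adjusted p = 0.0064), and Col6a3 from 23.7 and 16.7 to 3.72 and 9.53 (log2 -1.67, SE 0.45, adjusted p = 0.0428). Col3a1 and Col1a1 were thus lower in each later age group, without overlap between sections. Eln went from 198 and 234 to 44.6 and 114 CPM (log2 -1.47, SE 0.33, adjusted p = 0.0197), and all 12 elastic fibre genes tested had a negative log2 fold change, of which Eln and Fbln5 (-0.83, SE 0.23, adjusted p = 0.0493) were called by edgeR and 0 by DESeq2. Basement membrane genes leaned the same way (16 of 18 below 0, median -0.50), with 0 called by edgeR or DESeq2 and 7 at an unadjusted p under 0.05. Thbs2, a thrombospondin of fibroblasts, fell by 1.11 (SE 0.24, adjusted p = 0.0163), and Htra3, a secreted protease, by 1.59 (SE 0.28, adjusted p = 0.0060), whereas its relative Htra1 rose by 0.88 (SE 0.15, adjusted p = 0.0055). P4ha1, which hydroxylates collagen chains, rose by 1.09 (SE 0.19, adjusted p = 0.0060).

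Of the vessel wall, 4 of 9 arterial genes fell and 0 rose (median log2 -0.83), namely Fbln5, Gja4, Gkn3 and Vegfc, while DESeq2 called 0 of them. Fbln5 lost its call in 5 of the 6 fits that left out 1 section (adjusted p up to 0.220) and Vegfc in 4 of 6 (up to 0.129). Gja4, a gap junction protein of arteries, had 58.2 and 55.0 CPM in the adult sections, with 17.8 and 33.3 in the aged ones (log2 -1.18, SE 0.29, adjusted p = 0.0289). Myh11 was the only one of 13 smooth muscle genes called (180 and 232 to 69.9 and 104 CPM; log2 -1.26, SE 0.23, adjusted p = 0.0083), and the list's median was -0.44. Tagln, by contrast, had 134 CPM in aged replicate 1 and 419 in replicate 2 and overlapped with the adult values of 390 and 495.

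Endothelial genes went both ways, with 2 of 14 lower and 2 higher by edgeR, while DESeq2 called 1 of the 14. Cldn5, the main tight junction claudin of the blood-brain barrier, had 286 and 263 CPM in the adult sections, with 87.0 and 134 in the aged ones (log2 -1.33, SE 0.20, adjusted p = 0.0033), and Tek, the angiopoietin receptor, fell by 1.05 (SE 0.25, adjusted p = 0.0258). Mfsd2a, the barrier's lipid transporter, rose from 6.12 and 8.33 to 36.4 and 25.7 CPM (log2 2.12, SE 0.37, adjusted p = 0.0060), and Flt1, a receptor of vascular endothelial growth factor, rose by 0.82 (SE 0.21, adjusted p = 0.0342). Of 10 pericyte genes 0 were called by edgeR or DESeq2, with 3 at an unadjusted p under 0.05.

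Outside the matrix lists, Slc6a12, a betaine transporter, fell by 1.46 (SE 0.34, adjusted p = 0.0249) as the only one of 16 transporters of the leptomeninges called by edgeR, while DESeq2 called 0. It lost its call in 5 of the 6 fits that left out 1 section (log2 -1.75 to -1.15, adjusted p up to 0.188). Il33 fell by 0.87 (SE 0.24, adjusted p = 0.0448). Aldh1a2 (120 and 192 CPM against 165 and 112 in adults) and Ptgds (5479 and 9238 against 10226 and 6022) overlapped between the ages. Myoc, a secreted protein of the glia limitans list, had 523 and 380 CPM in the adult sections, with 178 and 245 in the aged ones (log2 -1.10, SE 0.20, adjusted p = 0.0076). C1ql2, Lypd6b, Myl4 and Ddb2 completed the largest falls, with log2 fold changes of -2.02, -2.38, -1.77 and -1.76. In aged members they had 10 and 14, 1 and 9, 13 and 6, and 9 and 8 UMIs. Ddb2 lost its call without either adult section or aged replicate 1, Myl4 without either adult section and C1ql2 without adult replicate 2.

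Myelin genes were among those that fell. Opalin, an oligodendrocyte membrane protein, had 122 and 210 CPM in the adult sections, with 5.95 and 21.0 in the aged ones (log2 -3.70, SE 0.37, adjusted p = 0.000601). Pllp, a myelin membrane protein, fell by 1.76 (SE 0.23, adjusted p = 0.0021) and Ugt8a, which makes myelin galactolipids, by 1.90 (SE 0.38, adjusted p = 0.0119). Of 10 oligodendrocyte genes, 4 fell, Opalin among them, and all 10 lay below 0 (median -0.98). DESeq2 called 1 of the 10. Without adult replicate 2 the log2 fold change was -0.999 for Ugt8a and -0.79 for Mag, which was among the 4, and neither was called (adjusted p = 0.107 and 0.208). The oligodendrocyte list was also lower in the other spots of aged sections, with 8477 and 8228 CPM against 13270 and 12652 in adult sections.

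Other genes with large rises are given singly, as no list of immediate early or stress genes was fixed. Egr1, an immediate early transcription factor, had 89.6 and 57.5 CPM in the adult sections, with 581 and 311 in the aged ones (log2 2.60, SE 0.28, adjusted p = 0.000701). Fosb (2.18) and Dusp4 (2.24), also immediate early genes, and the heat shock gene Hspa1b (2.31, adjusted p = 0.0051) rose with it. Hif3a, a target of glucocorticoid and hypoxia signals, rose by 2.53 (SE 0.44, adjusted p = 0.0061) and Zfp60 by 2.40. Lcn2 and Lrg1, secreted inflammation proteins, rose by 4.04 and 2.58 (adjusted p = 0.0209 and 0.0226), and the Lcn2 value rests on 0 and 3 UMIs in adults and 12 and 37 in aged members. Lcn2 lost its call in 4 of the 5 fits without 1 section in which it was tested (log2 3.04 to 7.91, adjusted p up to 0.160) and Lrg1 in 5 of 6 (1.51 to 3.26, up to 0.143). C4b, complement component 4, rose from 169 and 132 to 238 and 567 CPM (log2 1.40, SE 0.30, adjusted p = 0.0162) as the only one of 10 complement genes called by edgeR, while DESeq2 called 0. C4b was not called without adult replicate 1 (adjusted p = 0.066) or adult replicate 2 (0.150), and its log2 fold change was 0.66 without aged replicate 2. Of 13 interferon-induced genes 0 were called by edgeR or DESeq2, and 0 had an unadjusted p under 0.05.

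Neuron genes mark tissue beside the membranes. Of 10, 5 rose and 0 fell (Camk2a, Gad1, Gad2, Nrgn and Syt1, median log2 0.58), with Nrgn, a postsynaptic protein, at 1191 and 852 CPM in aged against 449 and 396.5 in adult members (log2 1.27, SE 0.21, adjusted p = 0.0052). Slc1a2, the astrocyte glutamate transporter, rose by 0.71 (SE 0.19, adjusted p = 0.0380). The neuron list had 10530 and 10368 CPM in the other spots of aged sections and 10243 and 9919 in those of adult sections, and 9462 and 6987 in aged members against 6625 and 6537 in adult members. The part that the tissue under the members had in the aged differences was not tested.

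The border share of the members also differed, at 71.8% and 80.4% in aged against 53.4% and 68.4% in adult sections without overlap, and between border and inner members 8 of 10 oligodendrocyte genes were lower at the border and 11 of 21 fibroblast genes higher. In aged border members alone, 460 genes were called, and Col1a1 (log2 -0.96), Col3a1 (-1.19), Eln (-1.14) and Myh11 (-0.99) were below the adult level without passing (adjusted p = 0.062 to 0.103 by edgeR). Fbln5, Flt1, Tek, Slc1a2, C1ql2, Lypd6b and Ddb2 did not pass there either (adjusted p = 0.083 to 0.291 by edgeR). Opalin (-5.34), Ugt8a (-3.10), Mag (-2.78), Pllp (-2.36), Cldn5 (-1.51) and Egr1 (3.03) kept their calls there (adjusted p = 0.000396 to 0.0064 by edgeR). Of 37 genes named by the fixed rule, 8 kept their call without adult replicate 2 and 16 without adult replicate 1. Col3a1, Cldn5, Opalin, Pllp and Egr1 kept their call without each section in turn. Col1a1 had an adjusted p of 0.057 and 0.056 without adult replicate 1 and 2, Myh11 of 0.101 without adult replicate 2, and Eln of 0.064 and 0.134. Flt1 and Lypd6b lost their call in 5 of 6 such fits (adjusted p up to 0.244 and 0.130) and Slc1a2 in 4 of 6 (up to 0.219).

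Whether an age effect was particular to the members was tested by the age-by-part term, with each section as a block. It differed for 6 genes at P21 (0.0517% of those tested, all lower in members relative to other spots) and for 4 genes in aged mice (0.0349%, with 1 higher, 0.00873%, and 3 lower, 0.0262%). In aged mice the split was 44 higher and 16 lower without Acta2 in the score and 7 and 6 with DESeq2. Most age changes of the members therefore were not shown to differ from those in the rest of the section. Col1a1, Col3a1, Eln and H2-Aa were not among the genes called.

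Cd74 was called at both ages. In members it had 39.4 and 40.0 CPM at P21, 293 and 137 in the adult sections, with 50.6 and 150 in the aged ones, and in other spots 8.21 and 7.61, 9.31 and 8.59, and 9.25 and 27.2. Its level thus differed between P21 and adult in members and hardly in other spots (difference of the log2 changes -2.20, SE 0.27, adjusted p = 0.0086), and aged replicate 2 had the highest level elsewhere (aged -1.99, SE 0.25, adjusted p = 0.0058). Slc13a3, a dicarboxylate transporter, had 84.0 and 67.5 CPM in P21 members against 258 and 137 in adult ones, while in other spots it had 14.7 and 15.2 against 11.8 and 11.1 (-1.68, SE 0.23, adjusted p = 0.0194). Slc22a8, an organic anion transporter (-1.31, adjusted p = 0.0476), and Gjb6, a connexin of astrocytes and fibroblasts (-1.09, adjusted p = 0.0213), were likewise lower at P21 in members and higher in other spots. Gjb6 had 226 and 223 CPM in P21 members against 435 and 312 in adult ones, and 105 and 107 against 82.6 and 79.4 elsewhere.

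Gsn, an actin-severing protein, rose at P21 both in members (320 and 303 CPM against 164 and 142) and more so in other spots (285 and 282 against 59.4 and 51.1; difference -1.31, SE 0.20, adjusted p = 0.0286). Arpc1b, a subunit of the actin-branching complex, had 89.7 and 75.2 CPM against 59.8 and 59.5 in members and 65.6 and 63.8 against 21.1 and 20.2 in other spots (-1.15, adjusted p = 0.0476). Of the aged terms besides Cd74, Myoc fell by less in members than elsewhere, where it had 30.7 and 24.3 CPM in the adult sections, with 5.40 and 5.14 in the aged ones (1.33, SE 0.17, adjusted p = 0.0065). Slc38a2, an amino acid transporter, rose in other spots from 103 and 103 CPM in the adult sections to 158 and 177 in the aged ones. In members it went from 309 and 236 CPM in the adult sections to 201 and 228 in the aged ones (-0.96, SE 0.15, adjusted p = 0.0499). Avp, the vasopressin of hypothalamic neurons, varied between replicates more than between ages, with 15.8 and 535 CPM in the adult members and 105 and 6.69 in the aged ones (-2.87, SE 0.32, adjusted p = 0.0031), and it lost its call without adult replicate 2 (adjusted p = 0.480) or aged replicate 1 (-0.50, 0.847). These terms depended on the sections entered. At P21, 0 genes were called by edgeR's quasi-likelihood test without P21 replicate 1 (618 at an unadjusted p under 0.05) or adult replicate 1 (570), 1 without P21 replicate 2, 149 without aged replicate 1 and 156 without aged replicate 2, and in aged mice 38 without aged replicate 1 and 310 without aged replicate 2.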

How the data were processed

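Per the labels and the study's methods, FFPE coronal sections were profiled with Visium probes. The deposited files hold UMI counts per gene and spot, which the authors made with Space Ranger (2.0.0 for P21 and adult and 3.1.1 for aged, per the file headers, while the submitters' processing notes list 2.1.0 and Seurat 5.1.0) on mm10. The counts are not normalised. Spots under 500 UMIs were left out, and member UMIs were summed per section, giving 1045778 to 2284515 per section. Precision is set by 2 sections per age. The members, gene lists and tests were chosen with earlier results of these data known.

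Sums were tested with edgeR 4.0.16 (R 4.3.3, TMM factors, quasi-likelihood test, Benjamini-Hochberg adjustment over all genes tested), in 1 fit of all 6 sections with age as the term. Genes were kept by filterByExpr and detection in over 10% of member spots at either age compared, and a call needed a fold change over 1.5 with an adjusted p under 0.05. Border vs. inner and age-by-part terms had the section as a block. Position was tested with an exact sign-flip permutation over sections (Python 3.11.15, numpy 2.4.6). CPM in the age comparisons are TMM-scaled, and those of list sums, of members against other spots and of border against inner members are not. The scripts were tested on simulated data.

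Named genes were the 2 called genes of smallest adjusted p in each direction per list, the 8 largest changes in each direction per age comparison with at least 20 CPM and no overlap between sections, the 6 largest in each direction of border vs. inner, the 5 smallest p of each age-by-part test and the 15 highest ratios of members to other spots. Other genes were named to complete a count or a figure, after their values were seen. Globin and H2 genes have close relatives, and how the probes tell them apart was not examined here. Coordinates are from GENCODE on GRCm38 and promoters from RefSeq on GRCm38.p6. Tissue images, the deposited spatial enrichment tables and the study's own clusters were not used here. Alternatives were other spot shares, a score without Acta2, a pooled score limit, thinning, other filters and tools, border members alone, a replicate block and each section left out.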

Additional observations from a re-analysis of the deposited data

Results flagged for a closer look

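The age-by-part test set the change of a gene in member spots against its change in the other spots of the same sections, and 10 results differed. In P21 vs. adult, the change in members minus that elsewhere was -1.31 on the log2 scale for Gsn, -1.68 for Slc13a3, -1.15 for Arpc1b, -1.09 for Gjb6, -2.20 for Cd74 and -1.31 for Slc22a8. In aged vs. adult it was 1.33 for Myoc, -2.87 for Avp, -0.96 for Slc38a2 and -1.99 for Cd74. Of these, Cd74 in aged vs. adult was called without each section in turn (adjusted p of at most 0.0498 by edgeR) but not in border members alone (-1.04, adjusted p = 0.271). Myoc was not called without adult replicate 1 or 2 (adjusted p = 0.0995 and 0.146), nor Slc38a2 without P21 replicate 1, P21 replicate 2 or adult replicate 1 (0.0988, 0.106 and 0.515), nor Avp without adult replicate 2 or aged replicate 1 (0.480 and 0.847), and Cd74 in P21 vs. adult was not called without P21 replicate 1, P21 replicate 2 or adult replicate 1 (adjusted p = 0.347, 0.062 and 0.101). Gsn (log2 -1.36 to -1.29) and Arpc1b (-1.25 to -1.09) were not called without any 1 of the P21 and adult sections. Slc13a3 was not called without P21 replicate 1, P21 replicate 2 or adult replicate 1 (log2 -1.88, -1.57 and -1.28). The same held for Gjb6 (-1.09, -1.10 and -0.90). Slc22a8 was not called without P21 replicate 1 or adult replicate 1 either. Groups of 2 sections are too small for a search for single outlying sections.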

How the results depend on the processing

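In P21 vs. adult, 154 genes were called, 74 with DESeq2, 9 when testing against a fold of 1.5 (glmTreat), 19 in the top 1% of spots, 471 in the top 5%, 323 with a pooled score limit, 61 in border members alone and 0 to 523 without 1 section. In aged vs. adult, 736 were called, 297 with DESeq2, 25 with glmTreat, 146 in the top 1%, 1349 in the top 5%, 460 in border members alone and 66 to 1411 without 1 section. For border vs. inner, 158 became 0 with glmTreat (226 at an unadjusted p under 0.05), 10 in the top 1% (all lower at the border), 428 in the top 5%, 78 without Acta2 in the score, 97 after thinning, 274 with a border of 1 step and 61 to 224 without 1 section. The 6 age-by-part genes at P21 became 27 (DESeq2), 0 (glmTreat, 161 at an unadjusted p under 0.05), 0 (top 1%, 538 at an unadjusted p under 0.05), 32 (top 5%), 45 (pooled), 15 (thinned), 2 (border members, both higher, so none of the 6 was called there) and 0 to 156 without 1 section. The 4 in aged mice became 13, 2, 2, 84, 25, 9, 16 and 3 to 310 under the same settings and 60 without Acta2. The split of higher and lower P21 calls moved to 36 and 38 with DESeq2, 92 and 89 after thinning and 223 and 248 in the top 5%, and the cause was not tested. The excess of members at the border was 46.3 to 51.5 points and that of member neighbours 25.4 to 31.5 points without 1 section, where 0.0625 is the smallest p that 5 sections allow. Other settings kept these results within 1.5 times. Among the named genes of these 5 comparisons, 0 changed direction under any alternative. The top 1% left aged replicate 2 without inner members.

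Replicate numbers did not pair the sections, as the deviations of same-numbered sections from their age means correlated at 0.03 (P21 and adult), -0.12 (P21 and aged) and -0.07 (adult and aged). With a replicate block, P21 vs. adult had 76 called genes while aged vs. adult had 500.

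With 2 sections per age and probes, slide version and software changing with the aged group, these counts limit what can be read from single genes, and genes of a few UMIs such as Lcn2 and Plvap have wide errors. The P21 levels of the class II genes, Slc47a1 and Klk6 rest on few UMIs too. P21 members held 27 and 5 of H2-Aa, 10 and 10 of H2-Eb1 and 20 and 10 of H2-Ab1. For Slc47a1 they held 25 and 5 and for Klk6 16 and 1.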

Other observations

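Of 9 microglia genes tested, 0 were called by edgeR or DESeq2 in P21 vs. adult (0 at an unadjusted p under 0.05, median log2 -0.17) and 0 in aged vs. adult (2 at an unadjusted p under 0.05, median 0.22), and the summed level of the whole list of 10 was 422 and 626 CPM in P21 members, 595 and 612 in adult members and 618 and 944 in aged members. Of 13 cell cycle genes, 3 passed the filter on low values, and the summed level of all 13 was 41.2 to 74.2 CPM in the members of all sections. The interferon-induced list, led by Ifitm3, had 388 and 231 CPM in P21 members, 530 and 374 in adult members and 388 and 644 in aged members, and 0 of 16 genes were called at P21 by edgeR or DESeq2, with 6 at an unadjusted p under 0.05 (median log2 -0.70). Its ages overlapped, with adult replicate 1 and aged replicate 2 highest.

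Bmp6 and Bmp7, members of the bone morphogenetic protein family, and Wnt5a rose at the border of the sections with Igfbp6, Aldh1a2 and Ptgds, which made 6 of 19 signals and growth factors tested (0 fell, median log2 0.62). Of 22 such genes, 0 were called in aged vs. adult by edgeR or DESeq2, with 5 at an unadjusted p under 0.05 (median log2 -0.16). Aldh1a2 and Ptgds are also on the fibroblast list.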
